A study of Mus musculus with 6 samples.

Results

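The genes described here are a panel of Toll-like receptors with their transport, adaptor and co-receptor genes, chosen by name: the surface receptors Tlr1, Tlr2, Tlr4 and Tlr6, the endosomal receptors Tlr7, Tlr9 and Tlr13, and Unc93b1, Myd88 and Cd14. The panel and the gene lists used further below were chosen with earlier results of these data known. All 10 genes of the panel had a row among the 15139 rows of the deposited expression table. All 10 passed the filter on low values used for testing. RNA came from primary mouse bone marrow cells at week 1 of a culture that favours myeloid and mast cells: RPMI medium held 10% fetal bovine serum, the cytokine IL3 at 10 ng/ml and SCF, the ligand of Kit, at 50 ng/ml. The wild-type group (WT, MxCre+v: Dnmt3a+/+) had 3 libraries, and the knockout group (DNMT3a_KO, MxCre+v: Dnmt3a-/-) had 2, of replicates 2 and 3. Knockout replicate 1 had no column of levels and so was not analysed here. Both groups therefore carry Mx-Cre, a recombinase whose promoter responds to interferon. No label names the inducing agent, the age of the mice or whether replicates were separate animals or cultures, so p-values measure the spread between these libraries, which may in part be technical. One label field calls the second group a knockdown. Levels are FPKM, fragments scaled to gene length and to the mapped fragments of the library, so the depth behind each value is unknown.

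Toll-like receptors are membrane proteins of innate immune cells that bind molecules of microbes. Tlr2 pairs with Tlr1 or Tlr6 to bind bacterial lipopeptides, and Tlr4 binds lipopolysaccharide that Cd14 hands to it. Tlr7, Tlr9 and Tlr13 sit in endosomes, where they sense single-stranded RNA, DNA with unmethylated CpG and bacterial ribosomal RNA, and the membrane protein Unc93b1 carries them there from the endoplasmic reticulum. Myd88 is the adaptor that links these receptors to IRAK kinases and NF-kappaB. Monocytes, macrophages, neutrophils and dendritic cells are well known for expressing them, and mast cells express some.

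Most of the panel was lower in the knockout, to unequal degrees. Because the panel and lists were chosen with earlier results known, their counts beside the shares of all tested genes are descriptions only. Of the 10, 7 were lower and none higher (limma, Benjamini-Hochberg adjusted p under 0.05), where 13% of the 11365 genes tested were lower and 9.08% higher. Unc93b1 and Cd14 fell most on the log2 scale, all 3 endosomal receptors fell, and of the surface receptors only Tlr1 passed the test. Tlr9 passed the filter only through the WT libraries, where it is high, so its place in these counts supports nothing. In 9 of the 10 both knockout libraries lay below every WT library, which held for 30.8% of tested genes; Tlr2 was the exception. Among all tested genes 20.4% had both knockout libraries above every WT library, so 51.1% did not overlap in either direction. The median log2 change was -0.49, beside -0.04 for all tested genes. With sex as a covariate, which leaves WT replicate 1 as the library compared with the knockout, 4 of the 10 were lower (Tlr7, Unc93b1, Myd88 and Cd14).

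Facts of the whole table bear on these values. Dnmt3a was 6.68, 9.99 and 9.04 FPKM in WT and 2.58 and 3.42 FPKM in the knockout, lower in both knockout libraries. Xist and Ddx3y mark WT replicates 2 and 3 as female and the other 3 libraries as male. In all, 2507 genes (22.1% of those tested) changed, 41.2% of them upward, and 52.5% of 2394 calls were upward after upper-quartile scaling.

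**Figure D1:**
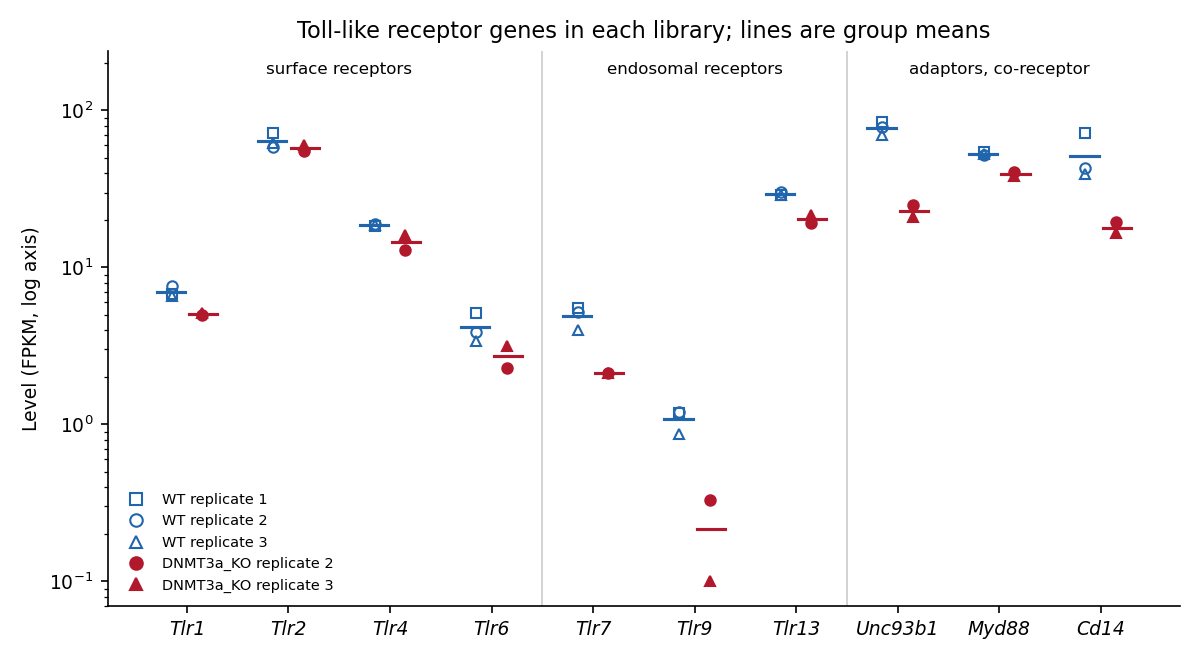
Level of each gene in every library in FPKM on a log axis, with open blue symbols for the 3 WT libraries, filled red symbols for the 2 DNMT3a_KO libraries and lines for the group means. The groups overlap for Tlr2 alone, and the gap is widest for Tlr9, Unc93b1 and Cd14.

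Promoter sequences are shown for 3 genes that fell, because Dnmt3a methylates CpG dinucleotides and these stretches differ in how many they hold. RefSeq entries of build GRCm38.p6 were found for 6 of the 10 genes (Tlr1, Tlr2, Tlr6, Tlr9, Tlr13 and Myd88). Each line gives the bases from 250 before the RefSeq transcription start up to that start or to the first exon in the GENCODE annotation, if that begins earlier, 5′ to 3′ on the gene's strand. Capitals mark a match to GAGGAA, the core of the PU box bound by the myeloid factor PU.1, or to the interferon response element, searched as GAAA, any 2 bases and GAAA. Both strands were searched.
Tlr9: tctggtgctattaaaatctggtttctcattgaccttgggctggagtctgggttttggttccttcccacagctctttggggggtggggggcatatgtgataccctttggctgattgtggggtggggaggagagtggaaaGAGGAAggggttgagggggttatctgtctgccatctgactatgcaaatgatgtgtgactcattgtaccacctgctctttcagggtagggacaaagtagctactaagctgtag
Tlr13: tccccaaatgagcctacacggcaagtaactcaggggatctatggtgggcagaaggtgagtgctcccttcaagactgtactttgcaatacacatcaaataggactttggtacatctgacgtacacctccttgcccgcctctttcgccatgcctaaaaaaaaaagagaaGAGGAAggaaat
Myd88: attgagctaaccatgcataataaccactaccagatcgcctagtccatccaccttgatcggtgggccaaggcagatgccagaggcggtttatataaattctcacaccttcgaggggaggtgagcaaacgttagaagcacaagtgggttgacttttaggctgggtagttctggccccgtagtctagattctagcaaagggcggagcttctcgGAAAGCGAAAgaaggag
The Tlr9 stretch lies at chr9:106222348-106222597 on the plus strand, the Tlr13 stretch at chrX:106143025-106143203 on the plus strand and the Myd88 stretch at chr9:119340042-119340268 on the minus strand. The full 250 bases before the RefSeq start held 0 CpG for Tlr9, 5 for Tlr13, 9 for Myd88 and 11 for Tlr2, whose level did not pass the test. The 2 entries of Tlr1, which was called lower, held 8 and 1, and the 2 of Tlr6 held 4 and 6. A relation between CpG number and change was not tested. Over 32851 RefSeq promoter entries the median was 6 and the quartiles 2 and 16. The PU box core begins 112 bases before the start of Tlr9 and 83 bases before that of Tlr13, and 23.25% of all entries hold at least 1 match to it. The interferon element begins 40 bases before the start of Myd88, and 2.98% of entries hold one. The NF-kappaB motif, searched as GGG, any 2 bases and TTTCC, is held by 1.41% of entries and by none of the 8 entries of these 6 genes. Among the entries not printed, 1 of 2 for Tlr1 held the PU box core, 23 bases before its start, and 1 of 2 for Tlr6, which did not pass the test, held 2 matches to the interferon element; that of Tlr2 held none of the 3 motifs. Methylation was not measured, and a match to a motif is not a binding site.

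Tlr2 (gene 24088, chromosome 3 from 83836272 to 83841824 in GRCm38.p6), the partner of both Tlr1 and Tlr6, was the surface receptor with the highest level. It stood at 71.46, 58.20 and 61.58 FPKM in WT replicates 1, 2 and 3 and at 55.25 and 59.96 FPKM in knockout replicates 2 and 3. The groups overlapped, since knockout replicate 3 lay above WT replicate 2. The difference was -0.14 ± 0.10 on the log2(FPKM + 1) scale (SE; adjusted p = 0.376, 95% interval -0.38 to 0.10), which does not show that the levels were equal. It came to -0.06 without WT replicate 1 (adjusted p = 0.738) and to -0.31 with sex as a covariate (0.144), and lay between -0.05 and -0.09 under median-of-ratios scaling, upper-quartile scaling and quantile normalization.

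Tlr4 (gene 21898, chromosome 4 from 66827551 to 66846581), the lipopolysaccharide receptor, was nearly the same in the WT libraries. Its levels were 18.30, 18.77 and 18.57 FPKM in WT and 12.99 and 16.16 FPKM in the knockout. Both knockout libraries were lower, but they differed more from each other than the WT libraries did. The change of -0.34 ± 0.10 (SE) missed the threshold by little (limma adjusted p = 0.0549). It passed without knockout replicate 3 (log2 change -0.48, adjusted p = 0.0159), with a filter of 5 FPKM (0.0466) and with robust variances (0.0498). Without knockout replicate 2 it was smaller (log2 change -0.19, adjusted p = 0.136), and with sex as a covariate it did not pass (0.245).

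Tlr1 and Tlr6 lie side by side on chromosome 5, from 64924680 to 64933600 and from 64953092 to 64970942. Tlr1 (gene 21897) was 6.75, 7.64 and 6.59 FPKM in WT and 4.95 and 5.12 FPKM in the knockout. The mean was 1.39-fold lower in the knockout and the groups did not overlap (log2 change -0.40 ± 0.10 SE, limma adjusted p = 0.0276). The call is a narrow one: it was lost when any of the 5 libraries was left out (adjusted p = 0.0574 to 0.0959), and with sex as a covariate (0.187). It was also lost with a replicate block (0.0642), without the filter on low values (0.0528), with equal totals (0.0592) and with upper-quartile scaling (0.0502).

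Tlr6 (gene 21899) was 5.12, 3.90 and 3.41 FPKM in WT and 2.28 and 3.18 FPKM in the knockout. Both knockout libraries were below all WT libraries, by a small margin, and the change of -0.46 ± 0.18 (SE) did not pass (limma adjusted p = 0.109). It came to -0.29 without knockout replicate 2 (adjusted p = 0.356) and to -0.72 in the fit with sex (0.0633). The transcripts of the neighbours are alike: 15.3% of the 50-base windows of the longest Tlr1 transcript occur unchanged in that of Tlr6, so reads could be assigned to either. The FPKM of both genes summed to 11.87, 11.54 and 10.0 FPKM in WT and 7.23 and 8.30 FPKM in the knockout, again without overlap, although a sum of values scaled to different gene lengths still depends in part on that split.

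Among the endosomal receptors Tlr13, which senses bacterial ribosomal RNA and is absent in humans, had the highest level. Tlr13 (gene 279572, chromosome X from 106143275 to 106160493) was 28.93, 30.28 and 29.13 FPKM in WT and 19.05 and 21.64 FPKM in the knockout. The WT libraries agreed closely and both knockout libraries were lower, the mean by 30.9% (log2 change -0.51 ± 0.08 SE, limma adjusted p = 0.00490). The adjusted p was 0.0504 with sex as a covariate, with a log2 change of -0.49.

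Tlr7 (gene 170743, chromosome X from 167303380 to 167330574), the receptor for single-stranded RNA, was 5.51, 5.19 and 4.0 FPKM in WT. It was 2.13 and 2.11 FPKM in the knockout. The knockout libraries were almost equal and well below the lowest WT library. The mean was 2.31-fold lower (log2 change -0.91 ± 0.14 SE, limma adjusted p = 0.00425), and Tlr7 passed under every alternative tried.

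Tlr9 (gene 81897, chromosome 9 from 106222598 to 106226876), the receptor for unmethylated CpG DNA, was the lowest of the 10. It was 1.18, 1.2 and 0.87 FPKM in WT and 0.33 and 0.10 FPKM in the knockout. It entered the test only through WT replicates 1 and 2, the group where it is high, and left it when either was dropped. Its mean was 5.04-fold lower in the knockout, the largest ratio of the 10, but at levels where FPKM are imprecise. On the log2(FPKM + 1) scale the change was -0.78 ± 0.17 (SE; limma adjusted p = 0.0174), and -2.00 with a pseudocount of 0.1 in place of 1 (0.0232). The call was lost with sex as a covariate (0.0699) and without knockout replicate 3 (0.0910).

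Unc93b1 (gene 54445, chromosome 19 from 3935158 to 3949340), the transporter on which the endosomal receptors depend, was the highest of the 10 in WT. It was 84.32, 78.12 and 70.22 FPKM in WT and 25.06 and 20.88 FPKM in the knockout. No knockout library came near the lowest WT library. The WT mean was 77.6 ± 7.07 FPKM (SD, n = 3) and the knockout mean 22.97 ± 2.96 FPKM (SD, n = 2), a 3.38-fold difference. On the log2 scale it came to -1.71 ± 0.11 (SE; adjusted p = 0.000242 by limma). Of all tested genes, 0.528% had a lower log2 change. It passed under every alternative tried.

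Cd14 (gene 12475), the surface co-receptor that loads lipopolysaccharide onto Tlr4, varied most among the WT libraries. It was 72.31, 42.84 and 39.59 FPKM in WT and 19.45 and 16.45 FPKM in the knockout. WT replicate 1 was far above the other WT libraries, and the lowest WT library was still above both knockout libraries. The mean was 2.87-fold lower in the knockout (log2 change -1.42 ± 0.24 SE, limma adjusted p = 0.00617). Without knockout replicate 3 the log2 change was -1.31 and the call was lost (0.0507).

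Myd88 (gene 17874, chromosome 9 from 119335934 to 119340018), the shared adaptor, fell less. It was 54.03, 51.74 and 52.79 FPKM in WT and 40.54 and 38.32 FPKM in the knockout. Each group was tight and the groups did not overlap, with a mean 25.4% lower in the knockout (log2 change -0.41 ± 0.07 SE, limma adjusted p = 0.00605). Its call held under every alternative tried. In the GENCODE annotation 11.3% of its exon bases lie opposite exons of Acaa1a, a peroxisomal thiolase gene on the other strand. Acaa1a was also lower in the knockout (log2 change -0.57 ± 0.08 SE, adjusted p = 0.00261). No source names the strand setting of the counting, and reads of the shared bases may belong to either gene.

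**Figure D2:**
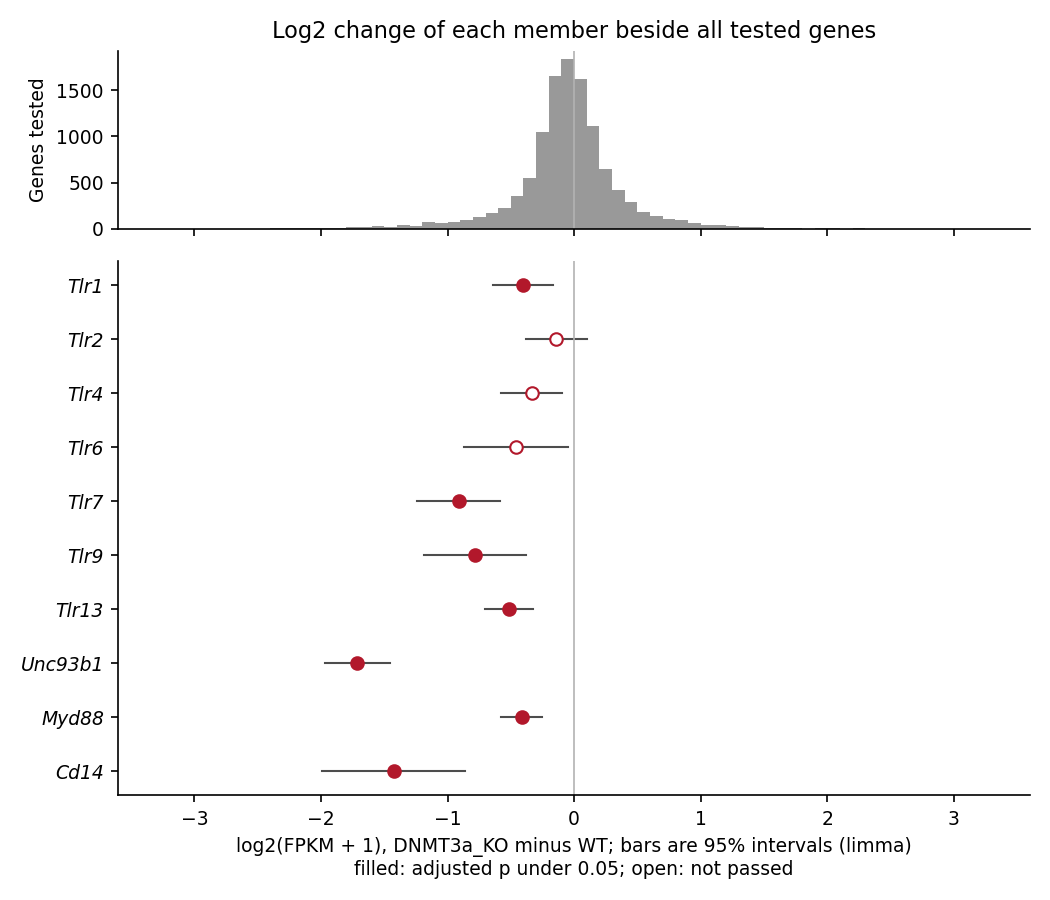
Upper panel, the number of tested genes by log2 change of log2(FPKM + 1), DNMT3a_KO minus WT; lower panel, the change of each gene with its 95% interval from limma, filled where the adjusted p was under 0.05. Unc93b1 at -1.71 and Cd14 at -1.42 lie in the left tail of the distribution, and the interval of Tlr2 spans 0.

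The authors' deposited table holds adjusted p-values of a comparison of their own, whose test no label describes. In the authors' deposited table, 6.09% of the 15139 rows and 3 of the 10 genes were under 0.05: Cd14 (2.46e-05), Unc93b1 (0.000118) and Tlr7 (0.00704). Myd88 (0.998), Tlr13 (0.282), Tlr1 (0.464) and Tlr9 (0.568), called here by limma, were not called in the authors' deposited table.

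The order of levels, which FPKM allow because they are per length, shifted with genotype. In WT it ran Unc93b1, Tlr2, Myd88, Cd14, Tlr13, Tlr4, Tlr1, Tlr7, Tlr6 and Tlr9. The library ranges of 3 neighbouring pairs overlapped there: Unc93b1 with Tlr2, Myd88 with Cd14, and Tlr7 with Tlr6. In the knockout Tlr2 was highest at 57.6 FPKM, followed by Myd88 at 39.4 FPKM, and then Unc93b1 at 22.97 FPKM. The ranges of Unc93b1 with Tlr13 and of Tlr13 with Cd14 overlapped in the knockout. Tlr9 was lowest in both groups.

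Ratios within a library do not depend on its scaling. The FPKM of the 3 endosomal receptors summed to 35.0%, 41.4% and 37.7% of those of the 4 surface receptors in the WT libraries and to 28.5% and 28.3% in the knockout libraries. Both knockout libraries were below all WT libraries. Unc93b1 stood at 2.37, 2.13 and 2.07 times the endosomal sum in WT and at 1.17 and 0.875 times in the knockout, lower in both knockout libraries than in any WT library. Cd14 stood at 3.95, 2.28 and 2.13 times the level of Tlr4 in WT and at 1.5 and 1.02 times in the knockout. Tlr13 made up 81.2% to 85.7% of the endosomal sum in WT and 88.6% and 90.7% in the knockout. Tlr2 made up 65.8% to 70.3% of the surface sum in WT and 73.2% and 71.0% in the knockout. The ratio of the sums therefore rests mainly on Tlr13 and Tlr2. Tlr8, which is not in the panel, is not in the endosomal sum. These ratios are descriptions: an exact permutation of 3 against 2 libraries is too small to test one.

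**Figure D3:**
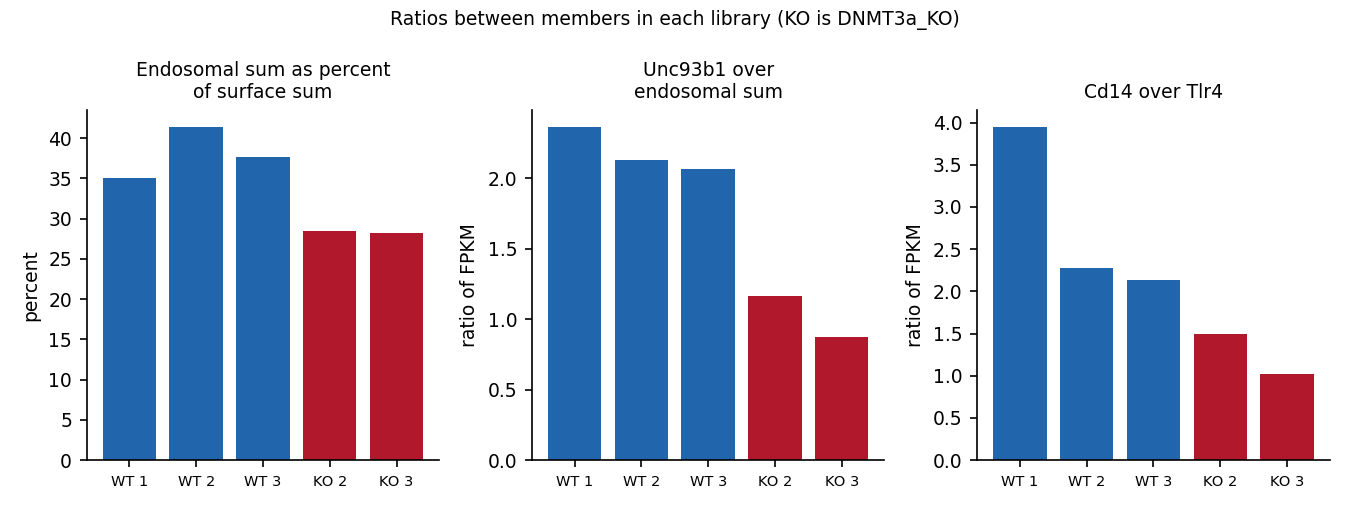
Bars show, for each library, the FPKM sum of Tlr7, Tlr9 and Tlr13 as a percent of that of Tlr1, Tlr2, Tlr4 and Tlr6, and the ratios of Unc93b1 to the endosomal sum and of Cd14 to Tlr4. WT libraries are blue and DNMT3a_KO libraries red, and in each panel both knockout bars are below all WT bars.

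Other receptors of the family were looked up too. Tlr8, an endosomal relative of Tlr7, was 9.11, 11.20 and 8.95 FPKM in WT and 3.14 and 3.04 FPKM in the knockout. It was thus above Tlr7 in all 5 libraries and fell by 1.39 ± 0.12 on the log2 scale (SE; limma adjusted p = 0.000462), under every alternative tried. Tlr3, Tlr5 and Tlr12 were below the filter and were not tested, with no library above 0.52 FPKM for Tlr3, 0.35 FPKM for Tlr5 or 0.28 FPKM for Tlr12. Tlr11 had no row.

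Among all tested genes 13% fell and 9.08% rose. Of 15 tested co-receptor and trafficking genes, 8 fell and none rose, with a median log2 change of -0.95. The endosomal proteases that cleave the receptors into their active form were among them: cathepsin S, Ctss, fell by 2.13 ± 0.20, legumain, Lgmn, by 1.53 ± 0.27, Ctsb by 1.25 ± 0.18 and Ctsl by 1.07 ± 0.22 (SE; limma adjusted p between 0.000638 and 0.0149). Ctss fell from 703.12, 884.15 and 746.82 FPKM in WT to 224.51 and 138.29 FPKM in the knockout. Lbp, which brings lipopolysaccharide to Cd14, fell by 1.07 ± 0.09, and Cd180, a receptor-like inhibitor of Tlr4, by 1.03 ± 0.11. Its partner Ly86 fell by 0.90 ± 0.26 and the scavenger receptor Cd36 by 0.95 ± 0.26, both close to the threshold (limma adjusted p = 0.0451 and 0.0380). Ly86, at 2.09, 1.18 and 0.69 FPKM in WT and 0.27 and 0.14 FPKM in the knockout, entered the test only through WT libraries. Ly86 and Cd36 lost their calls under 6 of 14 and 11 of 17 alternatives, and Lgmn lost its call without knockout replicate 3 (0.0572). Ctsl lost its own in the fit with sex and without knockout replicate 3. The genes that did not pass with the largest changes were Ctsk (-1.60, adjusted p = 0.0527), Slc15a4 (-0.19, 0.195) and Cnpy3 (-0.18, 0.269), the chaperone of many Toll-like receptors. Ly96, the subunit that completes the Tlr4 receptor, had a difference of 0.06 (0.880). Of the same list, Hsp90b1 (-0.14, limma adjusted p = 0.403), Ap3d1 (-0.15, 0.282) and Ap3b1 (-0.05, 0.748) did not pass either. Ly96, Hsp90b1, Ap3d1 and Ap3b1 are named after their values were seen.

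Of 24 tested genes of downstream signalling, 6 fell and 1 rose, with a median of -0.11. For all tested genes the shares were 13% and 9.08% and the median was -0.04. Irf5, a transcription factor activated by Myd88, fell from 47.41, 44.65 and 38.46 FPKM in WT to 16.72 and 14.03 FPKM in the knockout (log2 change -1.44 ± 0.11 SE, limma adjusted p = 0.000411). The adaptor Ticam2, which acts with Tlr4, fell by 1.19 ± 0.13, Pik3ap1, which links the receptors to PI3K, by 0.97 ± 0.10, the kinase gene Ikbke by 0.96 ± 0.09, and Irf7, which serves Tlr7 and Tlr9, by 0.67 ± 0.11. Ikbkb fell by 0.26 ± 0.07 (adjusted p = 0.0340), a call lost under 11 of 17 alternatives. The kinase gene Map3k7 (TAK1) rose, from 16.37, 16.65 and 17.35 FPKM to 24.41 and 26.06 FPKM (0.56 ± 0.08, adjusted p = 0.00254). The kinase and ligase genes directly below Myd88, named after their values were seen, did not pass: Irak4 (-0.17, 0.168), Irak1 (-0.13, 0.288) and Traf6 (-0.09, 0.521). The largest changes that did not pass were those of Map3k8 (0.47, 0.0925), Irak2 (0.34, 0.128) and Tirap (-0.21, 0.256).

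Among 7 tested negative regulators, 2 fell and none rose, where 13% of all tested genes fell and 9.08% rose. The NF-kappaB inhibitor gene Nfkbia fell by 0.76 ± 0.09 (limma adjusted p = 0.00122), and Irak3, which holds back IRAK signalling, by 0.37 ± 0.10 (0.0325; lost under 9 of 17 alternatives). Tnfaip3 (0.29, 0.0959), Sigirr (0.20, 0.251) and Tollip (0.20, 0.0877) did not pass.

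Genes that these receptors induce went the other way in part. Of 11 tested, 5 rose and 2 fell, with a median of 0.37, where 9.08% of all tested genes rose and 13% fell. Nfkbiz, an NF-kappaB cofactor, rose by 1.29 ± 0.23, the chemokine gene Ccl4 by 1.01 ± 0.19, Ptgs2 of prostaglandin synthesis by 0.95 ± 0.22, Tnf by 0.69 ± 0.15 and Il6 by 0.52 ± 0.13 (SE; limma adjusted p between 0.00800 and 0.0322). Ccl4 went from 277.91, 181.43 and 280.40 FPKM in WT to 505.64 and 470.68 FPKM in the knockout. Il1b fell by 0.69 ± 0.13 and Il1rn, its natural antagonist, by 0.67 ± 0.12. Ccl3 (0.37, adjusted p = 0.122), Ccl5 (0.35, 0.493) and Cxcl2 (-0.25, 0.431), all chemokine genes, had the largest differences of those that did not pass. None of the 5 rises passed once sex was in the fit (adjusted p = 0.0649 for Nfkbiz and 0.0801 for Ccl4), while both falls did. Tnf and Ptgs2 also lost theirs without WT replicate 2 or knockout replicate 3, and Il6 under 8 of 17 alternatives in all. The labels name no Toll-like receptor ligand in the culture, and these genes respond to other signals too.

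**Figure D4:**
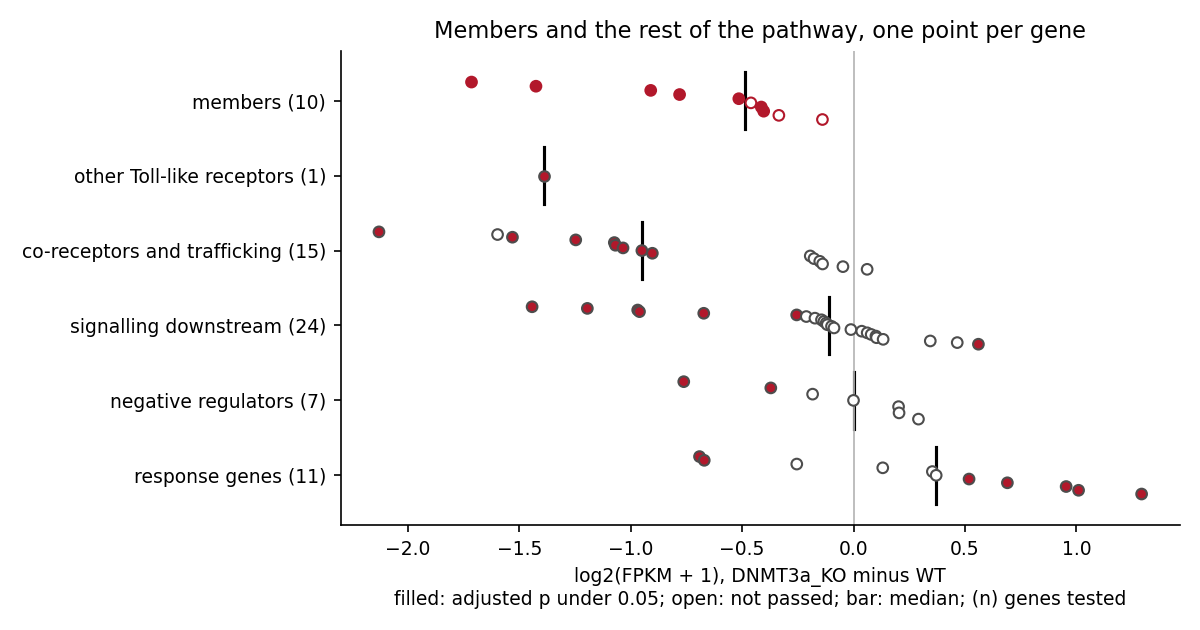
Each point is a tested gene, placed by its log2 change of log2(FPKM + 1), DNMT3a_KO minus WT, with filled points for an adjusted p under 0.05 and a bar for the median of each list; the top row holds the 10 genes of the panel. The co-receptor and trafficking list has 8 filled points, all left of 0, and the response list has 5 right of 0 and 2 left.

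Marker genes of myeloid cells moved in the same comparison, and in bulk RNA fewer cells of a type and less RNA per cell cannot be told apart. For comparison with the counts below, 13% of all tested genes fell and 9.08% rose. Of 14 monocyte and macrophage markers, 12 fell and none rose (median -1.40), and none was at 0 in any library. Their FPKM summed to 6303 to 8175 in WT and to 2665 and 2880 in the knockout. Lyz2 alone gave 4522.50 to 6476.77 FPKM of this in WT and 1311.10 and 1586.84 FPKM in the knockout. The sum thus depends heavily on that gene. Of the most abundant, Lyz2 (lysozyme) fell by 1.89 ± 0.17, while Ly6c2, a marker of inflammatory monocytes, had a difference of -0.04 ± 0.10 (SE; adjusted p = 0.833). Of 10 neutrophil markers tested, 8 fell (median -0.84), with sums of 21675 to 32198 FPKM in WT and 12548 and 16199 FPKM in the knockout. The most abundant, S100a9 and S100a8, which encode the subunits of calprotectin, fell by 0.82 ± 0.22 and 0.86 ± 0.19 (SE). Of 3 dendritic cell markers tested, 3 fell (Cd74, H2-Ab1 and Itgax), genes that macrophages express too. In the dendritic list Flt3, Zbtb46, Xcr1, Clec9a and Cd209a, the markers that define the lineage most closely, were too low to test, and Cd209a was at 0 in 2 libraries. Of the plasmacytoid markers, which mark the cells richest in Tlr7 and Tlr9, Siglech and Ly6d had no row and Ccr9 was at most 0.03 FPKM; Irf8, shared with other myeloid cells, fell and Bst2 and Tcf4 did not pass. Of 8 mast cell markers 6 rose (median 1.05), their sum going from 11833 to 13567 FPKM in WT to 27757 and 31953 FPKM in the knockout. The granule proteases Cpa3 and Tpsb2 were the most abundant and rose by 1.39 ± 0.14 and 1.30 ± 0.13 (SE). Of 4 basophil markers 2 rose, not the most abundant, Mcpt8 (-0.22) and Prss34 (-0.06), and of 4 eosinophil markers 1 rose, not the most abundant, Prg2 (0.40) and Epx (-0.06). Of 6 B cell genes only Cd79a and Cd79b had rows, at most 2.32 FPKM, and of T and NK cell genes Nkg7, which myeloid cells also express, fell. The part of these shifts in the falls of the receptor genes was not tested.

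**Figure D5:**
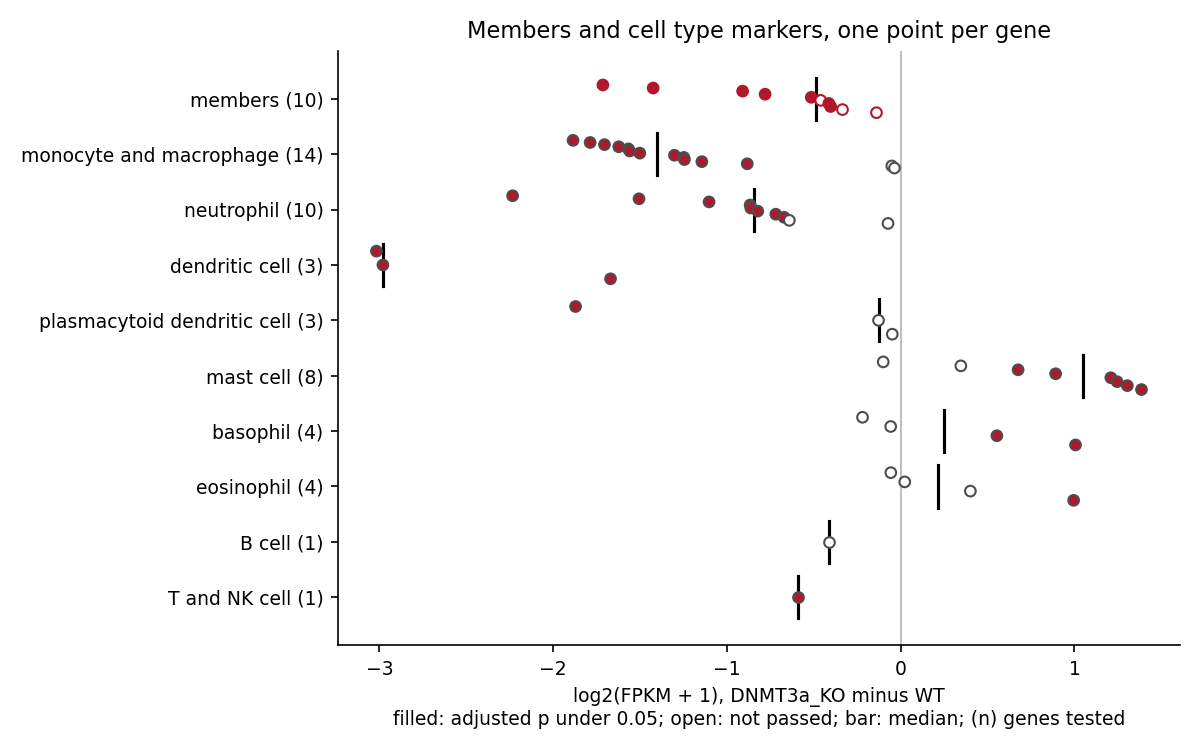
Log2 changes of the 10 genes of the panel and of the marker genes of each cell type, drawn as points that are filled where the adjusted p was under 0.05, with a bar for the median. The median of the panel is -0.49, beside -1.40 for the monocyte and macrophage list, -0.84 for the neutrophil list and 0.25 for the basophil list. The medians nearest to it are those of the T and NK cell list at -0.59 and the B cell list at -0.41, each of 1 tested gene.

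For the genes that fell by at least 0.5, the tested genes with the nearest profile over the 5 libraries were found, by Euclidean distance between centred log2(FPKM + 1) values. Nearest to Unc93b1 were Ms4a6c (distance 0.0808), Csf1r (0.0916), the receptor that sustains macrophages, and Ciita (0.0956), the transactivator of MHC class II genes. Nearest to Tlr7 were Aldh1b1 (0.114), Pyhin1 (0.126) and Lpcat1 (0.137). Nearest to Cd14, which shares with them a high WT replicate 1, were Vcan (0.165), Mmp14 (0.202) and the ficolin gene Fcnb (0.220). Tlr13 was nearest to Svil (0.0550), Tmco4 (0.0656) and Flna (0.0719), genes of which Svil and Flna encode actin-binding proteins. Tlr9 was nearest to Septin10 (0.0608), Gab1 (0.0751) and Pxylp1 (0.0811). Septin10, Gab1, Ciita and Pyhin1 were under 1 FPKM in both knockout libraries, so they entered the test only through WT libraries. With 2 groups in 5 libraries, such profiles mostly share the difference between genotypes.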

How the data were processed

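RNA of 3 WT and 2 DNMT3a_KO libraries, selected with oligo(dT), was sequenced on an Illumina HiSeq, per the labels' protocols. HISAT, StringTie 1.2.1, edgeR and the build mm10 appear in the submitters' processing notes without role or order. The authors deposited FPKM per gene and library, rounded to 2 decimals, and an adjusted p-value of their own comparison, per the file headers. Low values showed no common step, so whole reads were not recovered.

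Genes with at least 1 FPKM in 2 libraries (11365) were tested on log2(FPKM + 1) with limma 3.58.1 in R 4.3.3, with a mean-variance trend and no covariate, leaving 3 residual degrees of freedom. P-values were two-sided and adjusted over all genes tested, with a threshold of 0.05. The procedure was tested on simulated data with independent noise of the WT spread and no difference by sex. Only genes well above the filter on low values were changed there. That test does not cover genes as low as Tlr6 or Tlr9. The panel and the lists were chosen with earlier results of these data known. Named by rule were the panel, list genes past the threshold, the 3 largest changes per pathway list that did not pass, the 2 most abundant markers of a cell type and the 3 nearest profiles; other markers are named for a low level or after their values were seen. Symbols matched the table directly except Acod1, found by gene number. Alternatives covered the pseudocount, filter, scaling, variance model, sex, replicate block and each library left out.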

Additional observations from a re-analysis of the deposited data

How the results depend on the processing

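No gene of the panel changed direction under any alternative in which it was tested: 17 for 8 genes, 16 for Tlr6 and 14 for Tlr9. The filter of 5 FPKM removed Tlr6 and Tlr9, and leaving out WT replicate 1 or 2 removed Tlr9. With sex as a covariate 4 genes of the panel, 16 of the 58 tested pathway genes and 1312 of all genes changed, against 7, 25 and 2507 without it; that fit has fewer residual degrees of freedom and rests on WT replicate 1. Leaving out 1 library gave 5 to 6 genes of the panel, 17 to 24 pathway genes and 1623 to 2659 genes in all, with the lowest total without WT replicate 2; where 1 knockout library was left, it was assumed to vary like the WT libraries. With a replicate block 6 genes of the panel (Tlr1 lost), 24 pathway genes and 2058 genes in all changed. The deviations of same-numbered libraries correlated across genes at -0.03 for replicate 2 and 0.10 for replicate 3. The 2 knockout libraries deviate equally and oppositely from their mean, so both values rest on 1 knockout difference. They cannot decide whether the number pairs the libraries, and the main fit used no pairing. Tlr7, Unc93b1 and Myd88 passed in all 17. FPKM give no depth, so counting error, which weighs most on Tlr9, is unknown.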

Other observations

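Tlr7, Tlr8 and Tlr13 are X-linked, and the WT libraries included 1 from a male and 2 from females. The male library, WT replicate 1, held 5.51 FPKM of Tlr7 and the female libraries 5.19 and 4.0 FPKM. For Tlr8 the male library held 9.11 FPKM and the female libraries 11.20 and 8.95 FPKM, and for Tlr13 28.93 FPKM beside 30.28 and 29.13 FPKM. The male library was thus not below both female libraries for Tlr7 or Tlr8, while for Tlr13 it was the lowest by 0.20 FPKM. With 1 male library no test was made. Compared with the male WT library alone, the log2 changes were -1.06 for Tlr7 and -0.49 for Tlr13.

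The balance of Tlr1 and Tlr6 also differed between WT libraries. Tlr1 stood at 1.32 times Tlr6 in WT replicate 1 and at 1.96 and 1.93 times in WT replicates 2 and 3, with 2.17 and 1.61 times in the knockout. Among the WT libraries, 6 of the 10 genes (Tlr2, Tlr6, Tlr7, Unc93b1, Myd88 and Cd14) were highest in replicate 1. The share of all tested genes highest there was not counted. Replicate 1 also had the highest sum of neutrophil markers (32198 FPKM, beside 23901 and 21675 FPKM in the other WT libraries). The monocyte and macrophage, dendritic cell, and T and NK cell sums were highest there too, but each was carried largely by its most abundant gene. Lyz2 was 6476.77, 5178.23 and 4522.50 FPKM in WT replicates 1, 2 and 3, of sums of 8175, 6973 and 6303 FPKM. In replicate 1 Cd74 gave 1277.45 of 1601 FPKM of the dendritic cell sum. Nkg7 gave 67.94 of 69.01 FPKM of the T and NK cell sum there. Such sums do not speak for the other markers of their lists. Mast cell, basophil and eosinophil sums were highest in WT replicate 3, and plasmacytoid and B cell sums in WT replicate 2. The mast cell sums of WT replicates 1 and 3 were close, at 13500 and 13567 FPKM. Cpa3 made up 7231.29 and 7576.39 FPKM of them.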
